A study of Brassica napus with 2 samples.

Results

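The *IAA12* and *IAA13* orthologs of *Brassica napus* were the *Aux/IAA* genes assigned to AT1G04550 (*IAA12*) or AT2G33310 (*IAA13*) of *Arabidopsis* in the table of orthologous sets compiled for the study. This rule used no expression values. It found 8 of the 119 *Aux/IAA* genes, 4 for *IAA12* and 4 for *IAA13*, which form 4 homeologous pairs of a gene from the An subgenome and a gene from the Cn subgenome. Of these, 7 were among the 63193 genes with values, 3 for *IAA12* and 4 for *IAA13*. The remaining gene, *BnaC08R.IAA.2* (BnaC08g50150D), had no value, so that its homeolog *BnaAX.IAA.3* is described without a partner.

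Expression was measured by RNA-seq in 2 libraries of 30-day-old seedlings raised on MS agar. The IAA library came from seedlings kept for 3 h in liquid MS medium with 1 μM of the auxin IAA (indole-3-acetic acid), and the control library from seedlings kept in the same medium without IAA, which the sample labels give as water. Each library was made from 10 pooled whole seedlings, and the sources used here name no cultivar. With 1 library per condition there was no replicate check, and a difference between the libraries could also come from the pools of seedlings, which cannot be told apart from the treatment. In whole seedlings, fewer cells expressing a gene and less RNA per cell cannot be told apart either. Markers of seedling organs were not examined, because the gene identifiers were not paired with gene names outside the *Aux/IAA* family.

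Aux/IAA proteins are short-lived repressors that bind auxin response factors (ARFs) and keep auxin-responsive genes silent. Auxin joins them to the TIR1/AFB receptors, which marks them for degradation, and many *Aux/IAA* genes are themselves transcribed in response to auxin. In *Arabidopsis*, IAA12 (BODENLOS) represses ARF5 (MONOPTEROS), stabilised forms of it block formation of the embryonic root, and IAA13 is its closest relative and can act in a similar way.

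In the annotation of the Darmor-*bzh* genome, the *IAA12* orthologs have 5 exons and the *IAA13* orthologs have 4. Among the *IAA12* orthologs, *BnaA10.IAA.4* (BnaA10g02680D) lies on chromosome A10 from 1412824 to 1414126, and its homeolog *BnaC05.IAA.4* (BnaC05g02660D) on chromosome C05 from 1282527 to 1284256. *BnaAX.IAA.3* (BnaAnng12210D) lies on unplaced sequence of the A subgenome, from 13201793 to 13203174. The first homeologous pair of *IAA13* orthologs is *BnaA03.IAA.1* (BnaA03g15370D), on chromosome A03 from 7129400 to 7130721, and *BnaC03.IAA.1* (BnaC03g18580D), on chromosome C03 from 9512932 to 9514623. The second pair is *BnaA05.IAA.1* (BnaA05g10300D), on chromosome A05 from 5604950 to 5606530, and *BnaC04.IAA.1* (BnaC04g11220D), on chromosome C04 from 8702022 to 8703631.

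The *IAA13* orthologs were the more strongly expressed of both sets, with the exception of *BnaA03.IAA.1*. Levels are given as FPKM, fragments scaled by transcript length and by library, a scale on which genes of different length can be compared. *BnaC03.IAA.1* was at 16.7 FPKM in the IAA library and at 6.89 FPKM in the control library. *BnaC04.IAA.1* was at 12.7 FPKM with IAA and at 8.41 FPKM in the control, and its homeolog *BnaA05.IAA.1* at 9.94 FPKM with IAA and at 7.16 FPKM in the control. *BnaA03.IAA.1* was far below these 3 genes, at 1.59 FPKM with IAA and 0.613 FPKM in the control. All 4 *IAA13* orthologs were thus higher in the IAA library.

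Among the *IAA12* orthologs, *BnaA10.IAA.4* was at 4.87 FPKM with IAA and at 2.01 FPKM in the control. *BnaC05.IAA.4* was at 4.54 FPKM with IAA and at 2.99 FPKM in the control. Both were higher in the IAA library, whereas *BnaAX.IAA.3* had the lower value there, at 1.37 FPKM with IAA and 1.72 FPKM in the control. It was the only one of the 7 genes with a lower value in the IAA library. Of all 63193 genes, 23568 were higher there, and of the other 86 *Aux/IAA* genes with values, 61 were.

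Because low FPKM values are multiples of what 1 fragment is worth, the depth of each library could be estimated, at 18260000 fragments with IAA and 23640000 in the control. The FPKM values of the orthologs were turned into estimated fragments at these depths. The 4 genes with fewer than 100 fragments in both libraries, which had not been used to estimate the depth, came out within 0.0757 of a whole fragment, and the other 3 genes within 0.247. In the IAA and the control library, the estimated fragments were 301 and 161 for *BnaC03.IAA.1*, 243 and 208 for *BnaC04.IAA.1*, 189 and 176 for *BnaA05.IAA.1*, and 18 and 9 for *BnaA03.IAA.1*. They were 58 and 31 for *BnaA10.IAA.4*, 75 and 64 for *BnaC05.IAA.4*, and 21 and 34 for *BnaAX.IAA.3*. With IAA the values of *BnaA03.IAA.1* and *BnaAX.IAA.3* rested on the fewest fragments, and in the control those of *BnaA03.IAA.1* and *BnaA10.IAA.4*. The 95% intervals given below were computed from these fragments. They cover counting error only, and take the estimated depths as known.

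**Figure D1:**
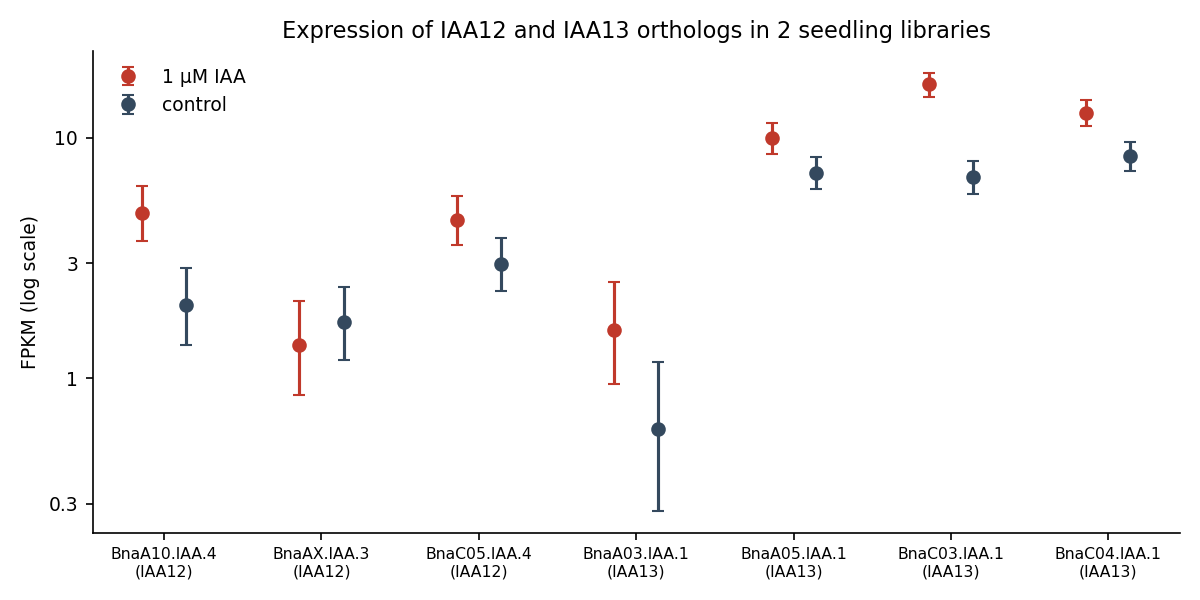
FPKM (log scale) of the 7 orthologs in the IAA library (red, left of each pair) and the control library (dark blue, right), 1 library each. Bars are 95% exact Poisson intervals of the estimated fragments. The bars of both libraries do not overlap for *BnaC03.IAA.1*, *BnaC04.IAA.1*, *BnaA05.IAA.1* and *BnaA10.IAA.4*, and they overlap for *BnaAX.IAA.3*, *BnaA03.IAA.1* and *BnaC05.IAA.4*. Bars that overlap do not show equal levels, as the ratio intervals of *BnaA03.IAA.1* and *BnaC05.IAA.4*, given below, lie above 1.

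The order of the levels differed between the libraries at the top. With IAA, *BnaC03.IAA.1* had the highest level (exact Poisson interval from 14.8 to 18.6 FPKM), and its interval did not overlap that of *BnaC04.IAA.1*, the next gene (11.2 to 14.4 FPKM). In the control, *BnaC04.IAA.1* (7.30 to 9.63 FPKM), *BnaA05.IAA.1* (6.13 to 8.29 FPKM) and *BnaC03.IAA.1* (5.86 to 8.03 FPKM) came first. Their intervals overlapped, and overlap neither sets an order nor shows equal levels. *BnaC04.IAA.1* and *BnaA05.IAA.1* also overlapped with IAA, although the interval of their share, given below, left out equal levels there. Below these 3 genes, *BnaA10.IAA.4* and *BnaC05.IAA.4* were neighbours with overlapping intervals in both libraries, in opposite order. *BnaA03.IAA.1* was last in the control, with an interval from 0.280 to 1.16 FPKM that did not reach that of *BnaAX.IAA.3*, from 1.19 to 2.40 FPKM. With IAA these 2 genes overlapped, at 0.941 to 2.51 FPKM for *BnaA03.IAA.1* and 0.850 to 2.10 FPKM for *BnaAX.IAA.3*. Within the 93 *Aux/IAA* genes with values, the 7 orthologs held places 40 to 79 in the IAA library and places 39 to 75 in the control, counted from the highest level.

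In the comparison of IAA with the control, 3 of the 7 orthologs were higher by 2-fold or more and 0 were lower by as much, on the scale of log2(FPKM + 0.1). Across all 63193 genes, 4.22% were higher by this threshold and 8.68% were lower. Of these genes, 0 were at 0 FPKM in both libraries. Among the 43979 genes that reached 1 FPKM in either library, as all 7 orthologs did, 2.51% were higher and 4.86% lower. The 3 genes were *BnaC03.IAA.1* (log2 fold change 1.26), *BnaA03.IAA.1* (1.24) and *BnaA10.IAA.4* (1.24). For *BnaC03.IAA.1* the ratio of the FPKM values was 2.42, with an exact binomial interval from 1.99 to 2.95. *BnaA10.IAA.4* had the same ratio of 2.42, with a wider interval from 1.54 to 3.88. The ratio of *BnaA03.IAA.1*, 2.59, was the highest of the 7 and the least certain, with an interval from 0.14 to 2.71 on the log2 scale. The intervals of all 3 genes thus extended below a 2-fold difference. With a pseudocount of 1 FPKM in place of 0.1 FPKM, only *BnaC03.IAA.1* remained at least 2-fold higher, at a log2 fold change of 1.16, against 0.96 for *BnaA10.IAA.4* and 0.68 for *BnaA03.IAA.1*.

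A further 3 orthologs were higher with IAA by less than 2-fold. These were *BnaC04.IAA.1*, with a log2 fold change of 0.59 and a ratio of 1.51 (interval from 1.25 to 1.83), *BnaC05.IAA.4*, with 0.58 and a ratio of 1.52 (interval from 1.07 to 2.15), and *BnaA05.IAA.1*, with 0.47 and a ratio of 1.39 (interval from 1.13 to 1.72). All 3 intervals lay above a ratio of 1. *BnaC05.IAA.4* did not keep this when its FPKM was turned into fragments with the length of the coding sequence alone (log2 interval from -0.09 to 1.29), and neither did *BnaA03.IAA.1* (log2 interval from -0.05 to 2.72). For *BnaAX.IAA.3*, with a log2 fold change of -0.30 and a ratio of 0.799, the interval ran from 0.441 to 1.42, so that its 21 fragments with IAA and 34 in the control could not separate the libraries. Of all genes, 97.2% had a smaller log2 fold change than *BnaC03.IAA.1*, 88.7% a smaller one than *BnaA05.IAA.1* and 35.1% a smaller one than *BnaAX.IAA.3*.

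**Figure D2:**
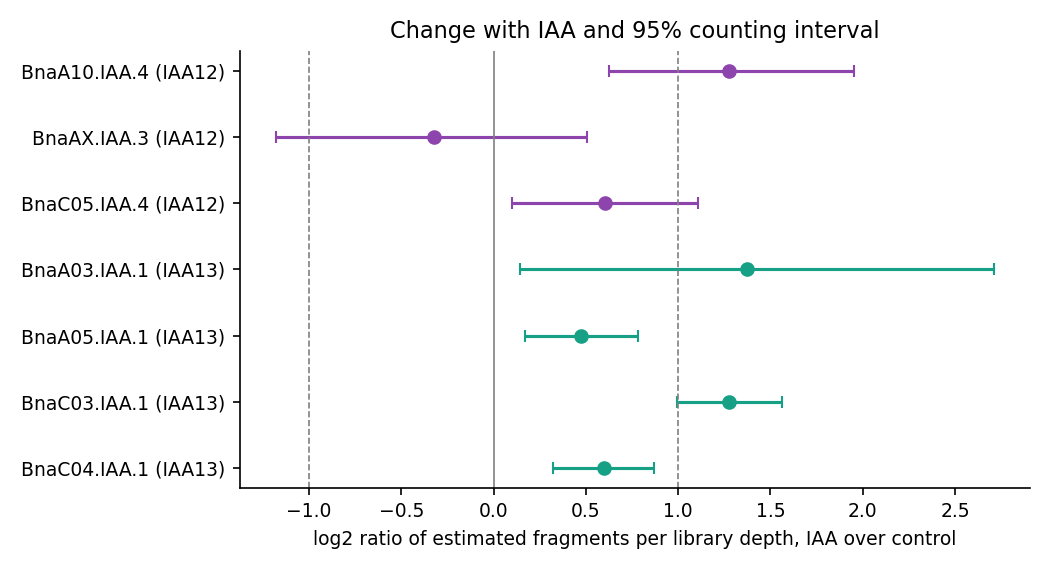
The log2 ratio of the IAA library over the control library for each ortholog, from estimated fragments divided by the depth of the library (purple for *IAA12*, green for *IAA13*), with 95% exact binomial intervals that cover counting error only. Dashed lines mark a 2-fold difference, and the intervals of 6 of the 7 genes lie above 0, all except that of *BnaAX.IAA.3*. The share of all genes with such an interval was not computed. Such intervals of the nearest relatives are described with subgroup B3 below.

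Whether the orthologs differed from each other in their change was examined for all 21 pairs, as the ratio of the fold changes with an exact conditional interval. For 8 pairs the 95% interval left out 1, and for 3 of these it still did so at a level of 99.76%, which allows for 21 intervals. *BnaC03.IAA.1* was the gene with the larger change in each of the 3. Its fold change was 3.03 times that of *BnaAX.IAA.3* (95% interval from 1.64 to 5.67), 1.74 times that of *BnaA05.IAA.1* (from 1.30 to 2.33) and 1.60 times that of *BnaC04.IAA.1* (from 1.22 to 2.11). The copies of *IAA13* thus did not all differ between the libraries to the same extent. Within *IAA12*, the fold change of *BnaA10.IAA.4* was 3.03 times that of *BnaAX.IAA.3* (95% interval from 1.43 to 6.47), but at the level of 99.76% this interval began at 0.986. For the other 13 pairs the 95% interval held 1. *BnaA10.IAA.4* and *BnaC03.IAA.1*, 1 gene from each set, had the most similar fold changes, with a ratio of 1.00 and an interval from 0.608 to 1.67.

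**Figure D3:**
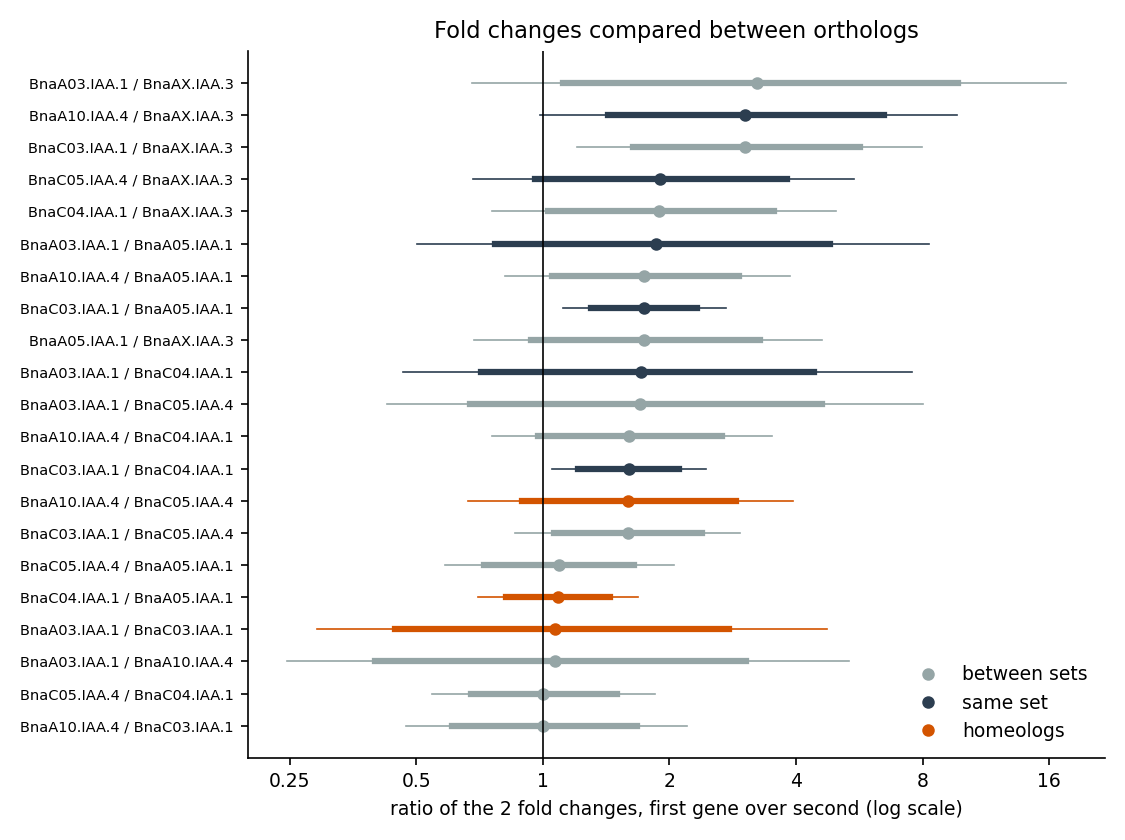
Ratio of the fold changes (IAA over control) of the first gene over the second for all 21 pairs of orthologs, on a log scale. Thick lines are 95% exact conditional intervals and thin lines intervals at 99.76%, and colours mark homeologs (orange), other pairs of the same set (dark) and pairs between the sets (grey). The thin lines leave out 1 for 3 pairs, all with *BnaC03.IAA.1* as the first gene, and the thick lines of all 3 homeologous pairs hold 1.

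None of the 3 homeologous pairs with values showed a detectable difference in change between the An gene and the Cn gene. The ratio of the fold changes, An over Cn, was 1.60 for *BnaA10.IAA.4* and *BnaC05.IAA.4* (95% interval from 0.891 to 2.88), 1.07 for *BnaA03.IAA.1* and *BnaC03.IAA.1* (from 0.444 to 2.77), and 0.919 for *BnaA05.IAA.1* and *BnaC04.IAA.1* (from 0.691 to 1.22). These intervals also hold differences of over 2-fold for the first and second pair, so that they do not show that homeologs changed alike.

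In level, the homeologs were far apart in 1 of the 3 pairs. *BnaA03.IAA.1* made up 8.71% of the summed FPKM of its pair with IAA (95% exact binomial interval from 5.28% to 13.3%) and 8.17% in the control (3.85% to 14.8%), so that *BnaC03.IAA.1* was 10.5 times as high as its An homeolog with IAA and 11.2 times as high in the control. *BnaA05.IAA.1* made up 43.9% with IAA (39.2% to 48.7%, which leaves out equal levels) and 46.0% in the control (40.9% to 51.1%). The share of *BnaA10.IAA.4* was 51.8% with IAA (42.8% to 60.5%) and 40.2% in the control (29.7% to 51.2%), and these intervals overlapped. Cufflinks, which made the FPKM values, can split fragments that match both copies of a pair, and its part in these shares was not tested.

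**Figure D4:**
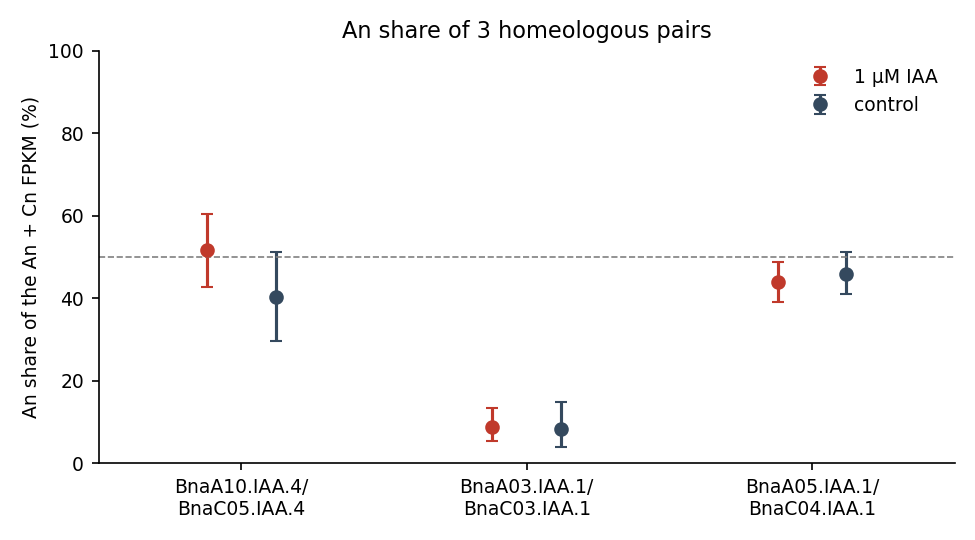
Share of the An gene in the summed FPKM of the An and Cn genes, in percent, for 3 homeologous pairs in the IAA library (red, left) and the control library (dark blue, right), with 95% exact binomial intervals. The share of *BnaA03.IAA.1* is below 15% in both libraries, while the other 2 pairs lie between 40% and 52%. Of the intervals of these 2 pairs, only that of *BnaA05.IAA.1* with IAA leaves out the dashed line at equal levels.

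Summed over its genes with values, *IAA13* was at 40.9 FPKM with IAA and at 23.1 FPKM in the control, a ratio of 1.77. The sum for the 3 *IAA12* genes was 10.8 FPKM with IAA and 6.72 FPKM in the control, a ratio of 1.60, and it lacks the fourth gene. The *IAA13* sum was 3.79 times the *IAA12* sum with IAA and 3.43 times in the control. *BnaC03.IAA.1* held 40.7% of the *IAA13* sum with IAA and 29.8% in the control, and accounted for 54.8% of the difference between the libraries. *BnaC04.IAA.1*, the highest of the set in the control with 36.5% of the sum, held 31.1% with IAA. Of the *IAA12* sum, *BnaA10.IAA.4* held 45.2% with IAA and 29.9% in the control, *BnaC05.IAA.4* held 42.1% with IAA and 44.5% in the control, and *BnaAX.IAA.3* held 12.7% with IAA and 25.5% in the control.

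The 7 orthologs had a median log2 fold change of 0.59, against -0.13 over all 63193 genes. Over the other 86 *Aux/IAA* genes with values the median was also 0.59, with 36 genes higher by 2-fold or more and 1 lower by as much. The orthologs ranged from -0.30 to 1.26, and the other *Aux/IAA* genes from -1.22 to 5.12. In the phylogeny of the study the *IAA12* and *IAA13* orthologs belong to subgroup B3, together with the orthologs of *IAA10* and *IAA11*. Values were given for 6 of those, all higher in the IAA library, with a median log2 fold change of 0.44. Only *BnaA03R.IAA.1*, an *IAA11* ortholog was at least 2-fold higher, with a log2 fold change of 1.91 from 85 estimated fragments with IAA and 28 in the control, and the smallest change was that of *BnaA10.IAA.1*, an *IAA10* ortholog at 18.3 FPKM with IAA and 17.3 FPKM in the control (log2 fold change 0.08). The medians of the other subgroups with more than 1 gene lay on both sides of these values, at 2.79 in A3, 2.23 in B4 and 1.26 in A1, and at -0.30 in A2 and -0.39 in B2. None of the 11 genes of A2 or the 15 genes of B2 was at least 2-fold higher.

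**Figure D5:**
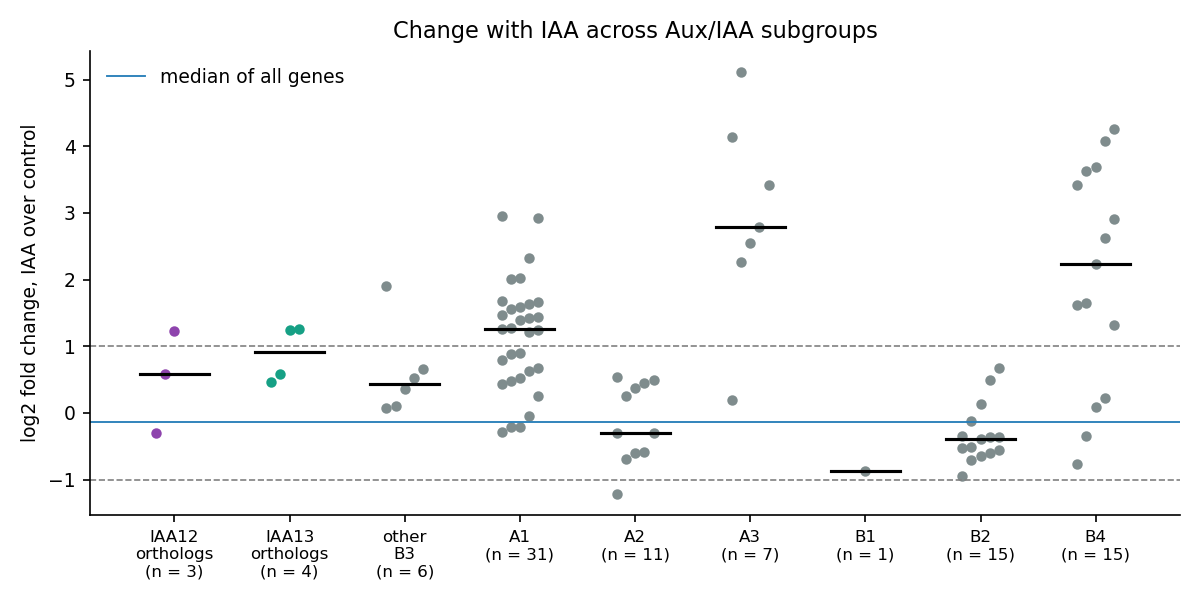
The log2 fold change (IAA over control, 0.1 FPKM added) of each *Aux/IAA* gene with values, by ortholog set and subgroup, with n the number of genes. Black lines are medians, dashed lines a 2-fold difference and the blue line the median of all genes, -0.13. The *IAA12* and *IAA13* orthologs, between -0.30 and 1.26, lie below the medians of A3 and B4. All 7 genes lie above the median of B2, and 6 of 7 above that of A2.

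The median level of the 7 orthologs was 4.87 FPKM with IAA and 2.99 FPKM in the control. The 3 *Aux/IAA* genes outside both sets that were nearest to this point, by the distance on the log2 scale over both libraries, came from 3 subgroups. *BnaC07.IAA.4*, an *IAA11* ortholog in B3, was at 4.24 FPKM with IAA and 2.93 FPKM in the control (distance 0.20). *BnaCX.IAA.3*, an ortholog of *IAA17* in A1, was at 5.37 FPKM with IAA and 3.69 FPKM in the control (distance 0.32), and *BnaA09.IAA.1*, an ortholog of *IAA28* in B2, at 5.76 FPKM with IAA and 3.57 FPKM in the control (distance 0.34). With 2 libraries, this likeness says no more than that a level and a change were close.

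The homeologs *BnaA10.IAA.4* and *BnaC05.IAA.4* each lie within 300000 bp of the same 3 other *Aux/IAA* orthologs, those of *IAA10*, *IAA3* (SHY2) and *IAA17* (AXR3), which were chosen for description after their values were seen. On chromosome A10, *BnaA10.IAA.2*, the *IAA3* ortholog, lies 118584 bp from *BnaA10.IAA.4* and was at 53.1 FPKM with IAA and 6.90 FPKM in the control (ratio 7.69). *BnaA10.IAA.3*, the *IAA17* ortholog, was at 28.2 FPKM with IAA and 8.99 FPKM in the control (ratio 3.13), and *BnaA10.IAA.1*, the *IAA10* ortholog, had a ratio of 1.06. Against these, the ratio of *BnaA10.IAA.4* was 2.42. The interval of *BnaA10.IAA.4*, from 1.54 to 3.88, holds the ratio of *BnaA10.IAA.3*, so that these were not separable. On chromosome C05 the ratios came in the same order, at 4.21 for *BnaC05.IAA.2*, 2.72 for *BnaC05.IAA.3*, 1.52 for *BnaC05.IAA.4* and 1.29 for *BnaC05.IAA.1*, but the log2 intervals of *BnaC05.IAA.4* (0.10 to 1.11) and *BnaC05.IAA.1* (0.15 to 0.58) overlapped. With IAA the *IAA12* ortholog had the lowest level of the 4 genes on each chromosome, at 4.87 FPKM on A10 and 4.54 FPKM on C05. In the control this held on A10, at 2.01 FPKM, but not on C05, where *BnaC05.IAA.2* was at 2.49 FPKM and *BnaC05.IAA.4* at 2.99 FPKM.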

How the data were processed

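RNA was taken from 1 pool of 10 seedlings per condition, and TruSeq libraries were sequenced on a HiSeq platform. Reads were aligned to the Darmor-*bzh* reference by the authors using HISAT2 2.0.4, and the deposited FPKM of each gene was made with Cufflinks 2.2.1. The processing notes of the submitters also name bcl2fastq 2.18. Genes were matched by identifier through the family tables of the study, from which positions, exon numbers and subgroups were taken. Transcript lengths were computed from these tables, as the coding length plus the part of the gene span outside the open reading frame. This takes the untranslated regions to have no introns. Expression values of other tissues were not used.

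Log2 fold changes (IAA over control) were computed after 0.1 FPKM was added, which understates the change of low genes, using scipy 1.17.1, numpy 2.4.6 and pandas 2.3.3 under Python 3.11.15. Figures were drawn with matplotlib 3.10.9. The depths and a mean fragment length of 194 bp were those that turned low values of other *Aux/IAA* genes into whole fragments (15 genes with IAA, 22 in the control, between 0.3 and 20 fragments). Fragments were rounded, and exact binomial, Poisson and conditional intervals were computed at 95%. The count test of the study was not run, since read counts were not used here. The depth estimate and the binomial and conditional intervals were tested on simulated counts. These took transcript lengths as known and had no fragments shared between copies.

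All 8 genes of the rule were named. Auxin pathway genes outside the family were not examined, as their identifiers were not paired with names. Other genes named were the 3 nearest *Aux/IAA* genes, the extremes of subgroup B3 and, chosen after values were seen, the *Aux/IAA* neighbours on A10 and C05. The members and lists were chosen with earlier results of these data known. Alternatives were pseudocounts, minimum levels, scalings, fold thresholds, transcript lengths and depths.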

Additional observations from a re-analysis of the deposited data

How the results depend on the processing

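No paired analysis was possible because there is only 1 IAA library and 1 control library. The number of orthologs at least 2-fold higher with IAA, 3, was 1 with a pseudocount of 1 FPKM and 0 at a fold threshold of 4, and lay between 3 and 4 under the other settings. The number at least 2-fold lower was 0 under each setting. The median log2 fold change lay between 0.54 and 0.68. Under other pseudocounts and scalings, 28 of 28 recomputed values of single orthologs stayed within their counting intervals, with 0 changes of sign. A pseudocount cannot change a sign, and wide intervals are a weak check. The interval of *BnaA03.IAA.1*, from 0.14 to 2.71, held both its value of 1.24 and that of 0.68 after adding 1 FPKM. Of the 6 intervals above 0, 4 stayed so with the length of the coding sequence alone and 5 with depths 20% lower, where that of *BnaA03.IAA.1* began at -0.03. How many of all genes had an interval above 0 was not computed. The shift from centring the IAA library was -0.09 (log2).

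Over all genes, 2668 were higher and 5487 lower by 2-fold or more. These counts were 666 and 873 after adding 1 FPKM, 4311 and 9099 after adding 0.01 FPKM, 1103 and 2137 among genes that reached 1 FPKM in either library, 752 and 1408 among those above 0.5 FPKM in both, 5635 and 12204 at a fold threshold of 1.5, and 724 and 1160 at a threshold of 4. The cause was not tested. Depth limits *BnaA03.IAA.1* most, with 18 fragments with IAA and 9 in the control.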
